A study of Mus musculus with 8 samples.

Results

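The comparison sets cardiomyocyte cultures at day 10 (CM) against mesoderm cultures at day 4 (MES) of the same differentiation, over every protein-coding gene. Its members are the 21936 genes that the files annotate as protein coding, of the 55487 genes counted. The 4 libraries of CM and MES, 2 biological replicates each, are compared, out of 8 libraries that also cover undifferentiated ESC at day 0 and cardiac progenitors (CP) at day 6. CM were J1 mouse ESCs of strain 129S4/SvJae kept for 10 days, and MES the same cells kept for 4 days, as embryoid bodies (cell clumps made in hanging drops and later plated). Both groups received 1 mM ascorbic acid in the differentiation medium and carried no genetic change. By the study's methods, patches of contracting cells were harvested and no sorting is described, so each library may hold every cell type of its culture, and all come from a single ESC line. In such bulk samples fewer cells of a type and less RNA per cell cannot be told apart.

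During gastrulation, cells pass through the primitive streak, where Nodal, Wnt and FGF signals switch on T-box and homeobox factors such as *T*, *Eomes* and *Mixl1*, and *Mesp1* marks the mesoderm that will form the heart. Heart muscle cells then build sarcomeres, the contractile units in which myosin thick filaments pull on actin thin filaments anchored at the Z-disc, and they couple contraction to calcium released from the sarcoplasmic reticulum. The heart also holds fibroblasts and smooth muscle, which secrete and bear collagen matrix, an epicardial cover, endothelium and resident macrophages.

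The total counts of the 4 libraries ranged from 18046063 to 19728777. Of the members, 17987 had a count in at least 1 of these libraries, and 15271 passed the filter on low counts and were tested. A gene was called higher or lower in CM where the quasi-likelihood test of edgeR gave an adjusted p under 0.05 with a fold change over 2 or below 0.5. Levels are given as TPM, which corrects for gene length and for the sum of each library, while fold changes come from counts scaled by TMM and can differ from ratios of TPM. Replicates of CM lay further apart than those of other stages, with 494 mRNAs over 2-fold apart, compared with 58 in MES, and the mean chi-square per mRNA between replicates was 38.7 in CM and 6.87 in MES. The fit pooled the spread of a gene over the stages, which can make p-values for CM too small.

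Defining markers were checked first. *Tnnt2*, which encodes cardiac troponin T, was at 26.3 and 46.0 TPM in CM, against 1.54 and 3.01 TPM in MES. *Myh6*, the alpha myosin heavy chain, was at 66.7 and 199 TPM in CM, against 0.343 and 0.527 TPM in MES. *Actn2* of the Z-disc was at 28.6 and 28.5 TPM in CM, against 2.21 and 3.13 TPM in MES. *Tnnt2*, *Myh6*, *Actn2* and *Myl7*, the atrial light chain, were each called higher, with log2 fold changes of 3.74, 7.97, 3.19 and 2.68 in that order. *Nkx2-5*, a homeobox factor of heart muscle, was not called (log2 fold change 0.93, adjusted p = 0.264), with 2.24 and 14.8 TPM in CM, against 3.78 and 3.52 TPM in MES, so the groups overlap. Without CM replicate 1 it was called higher (1.69, adjusted p = 0.000916 by edgeR), and without CM replicate 2 its log2 fold change was -0.85. Of the MES markers, *T*, *Mesp1*, *Mixl1* and *Eomes* were called lower in CM and stood at 18.5 to 116 TPM in MES. *Kdr*, a receptor of early mesoderm and endothelium, was at 62.0 and 55.3 TPM in CM, against 95.4 and 89.8 TPM in MES, a log2 fold change of -0.88 that did not reach the fold threshold, but was -1.07 and called without CM replicate 1.

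Among the tested mRNAs, 3101 were higher in CM than in MES, which is 20.3%, and 1626 were lower, which is 10.6%. By fitted values 1775 rose and 375 fell by more than 4-fold, and 323 rose and 20 fell by more than 64-fold. Of the genes called higher 212 had no count in MES, and of those called lower 23 had none in CM, and their fitted folds are set by the model's prior count. With these genes at the bound that a floor of 3 counts over 2 libraries gives, and genes of 1 to 3 counts at their ratio, 178 rose and 9 fell by more than 64-fold. Among genes with over 3 counts in both stages 40 rose and 6 fell by that much. Another 4731 mRNAs had an adjusted p under 0.05 within a 2-fold change. The 2 CM libraries lay on 1 side of the 2 MES libraries for 3095 of the mRNAs called higher and for all 1626 called lower. The calls were made from these same libraries, so this is not separate support for them. Over genes of all biotypes, 3825 of 20071 were higher (19.1%) and 2026 were lower (10.1%). As a description with no test, the genes called higher made up 15.5% and 13.5% of all mRNA TPM in CM, against 2.73% and 2.97% in MES. The genes called lower made up 10.3% and 10.4% in CM, against 23.4% and 22.5% in MES. The median exon length of the genes called higher was 4260 bases and of those called lower 3807.5 bases, beside 4478 bases in tested mRNAs that were not called.

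**Figure D1:**
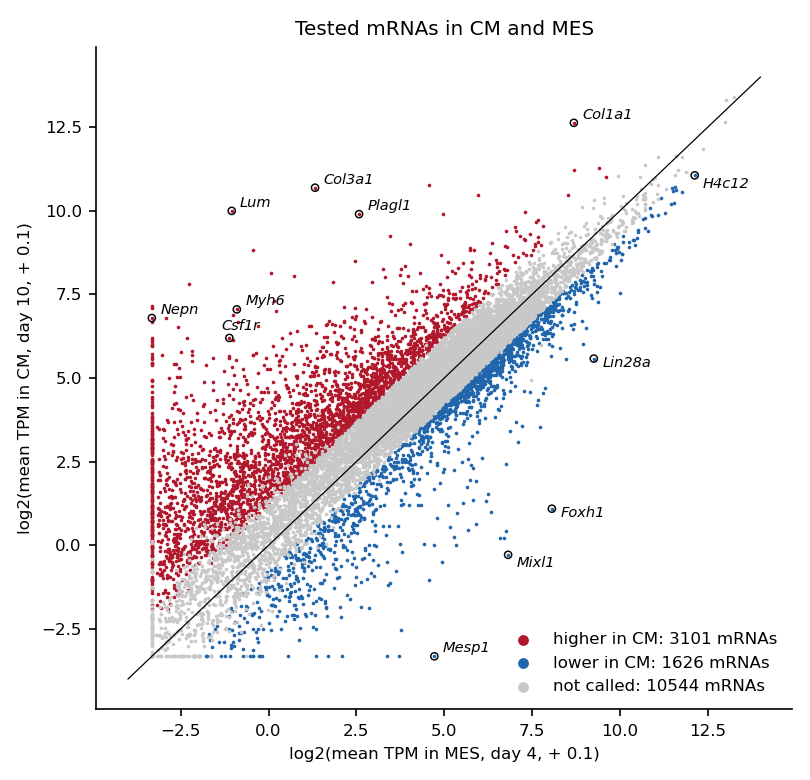
Mean TPM of 2 libraries in CM (vertical) and in MES (horizontal), both as log2 of TPM plus 0.1, for the 15271 tested mRNAs, each a point, with the line of equal levels. Genes called higher in CM (red, 3101) reach further from the line than genes called lower (blue, 1626), and the red column at the left edge holds the genes without a count in MES.

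The 10 largest rises by fitted value, among mRNAs averaging 2 or more in log2 CPM, were of genes with no count in MES, so their folds are lower bounds and their order is not established. *Nepn*, the leucine-rich proteoglycan nephrocan, was at 73.8 and 148 TPM in CM and was at least 594-fold higher. *Islr*, a secreted leucine-rich repeat protein, was at 90.9 and 55.8 TPM in CM and was at least 544-fold higher. The others were *Clca3a1*, *C1qb*, *Rhox6*, *Serpinb9e*, *Adgre1*, *Serpina3n*, *Fcrls* and *Colec10*, at least 270-fold higher or more. The measured rise of *Lum*, which encodes lumican, was 2265-fold, above all of these bounds. The 10 largest falls by fitted value, under the same limit of 2 in log2 CPM, were of *Mixl1*, *Foxh1*, *Fgf3*, *Vrtn*, *T*, *Ubash3a*, *2410141K09Rik*, *Alox15*, *Stmn2* and *Eomes*. *Vrtn*, which affects the number of vertebrae in pigs, was at 1.51 and 0.623 TPM in CM, against 109 and 97.8 TPM in MES, 110-fold lower. *Ubash3a* and *2410141K09Rik* were under 1 TPM in every library of CM and MES, and their falls are bounds of at least 8.04-fold and 7.66-fold, under the measured falls of *Lhx1* (46.0-fold), *Cer1* (45.8-fold) and *Pou5f1* (34.3-fold), genes of the streak, of Nodal inhibition and of pluripotency. The limit on log2 CPM is an average over all 8 libraries, so genes can pass it through ESC or CP. It left out *Mesp1* and *Hoxd1*, at least 123-fold and 89.6-fold lower.

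Of the 10 largest gains in TPM, 3 were of collagen genes and 2 of genes on the list of other matrix and fibroblast genes. *Col1a1*, the alpha 1 chain of type I collagen (ENSMUSG00000001506, chromosome 11 from 94936224 to 94953042 of GRCm38), was at 8154.5 and 4539 TPM in CM, against 426 and 400.5 TPM in MES. It rose 13.3-fold (log2 fold change 3.74, standard error 0.28, adjusted p = 6.55e-06) and was the most abundant of the mRNAs called higher in both CM libraries. *Col3a1*, of the type III collagen found with it in fibres, was at 1900 and 1409.5 TPM in CM, against 1.601 and 3.21 TPM in MES, and rose 595-fold (adjusted p = 3.60e-07). *Lum*, the fibril-binding proteoglycan lumican, was at 1369 and 677 TPM in CM and had 9 counts in the MES libraries together. Its rise was 2265-fold or 11.15 on the log2 scale (standard error 0.60, adjusted p = 2.76e-06). In each of these genes the lower CM library was above the higher MES library by more than 10-fold.

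All 18 collagen genes on the list were tested and called higher (of all tested mRNAs, 20.3%), with a median log2 fold change of 4.26 beside 0.01 over all tested mRNAs. Their TPM summed to 16526 and 10501 in CM, against 1053 and 978 in MES. Besides the fibrillar chains they included the beaded microfibril chains *Col6a1* (354 and 255 TPM in CM, against 9.28 and 9.66 TPM in MES) and *Col6a3*, which rose 258-fold. The basement membrane chain *Col4a1* rose less, by 1.64 on the log2 scale (538 and 743 TPM in CM, against 185 and 162 TPM in MES), and *Col2a1* of cartilage the least (log2 fold change 1.13, adjusted p = 0.00726), a call lost without CM replicate 2 (0.68) or MES replicate 1 (0.84).

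Of 25 other matrix and fibroblast genes, 18 were higher, or 72.0% (all tested mRNAs: 20.3%), and none lower, with a median log2 fold change of 2.44. *Lox*, the enzyme that cross-links collagen, was at 635 and 266 TPM in CM, against 0.439 and 0.829 TPM in MES (log2 fold change 9.27, adjusted p = 2.99e-06). *Dcn*, the proteoglycan decorin, was at 283 and 166 TPM in CM and had 6 counts in the MES libraries together. *Postn*, the matricellular protein periostin, was at 534 and 502 TPM in CM, against 11.8 and 20.7 TPM in MES, and rose 27.4-fold. *Sparc*, a collagen-binding glycoprotein, was at 2871 and 1925 TPM in CM, against 418 and 404 TPM in MES, and rose 5.05-fold (adjusted p = 1.26e-05). *Fn1*, which encodes fibronectin and was already at 988 and 993 TPM in MES, was at 2290 and 1896 TPM in CM, and its log2 fold change of 0.86 did not reach the threshold, but was 1.06 and called without CM replicate 2. *Vcan*, the proteoglycan versican, and the mesenchymal receptors *Pdgfra* and *Pdgfrb* were not called, with log2 fold changes of -0.03, -0.31 and -0.37. *Serpinh1*, the collagen chaperone, was at 2411 and 1683 TPM in CM, against 801 and 757 TPM in MES, and its call (log2 fold change 1.18) was lost without CM replicate 1, where it was 0.79. CM replicate 1 was the higher of the CM libraries for *Col1a1*, *Lum* and *Lox*, and the lower of them for most sarcomere genes below.

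**Figure D2:**
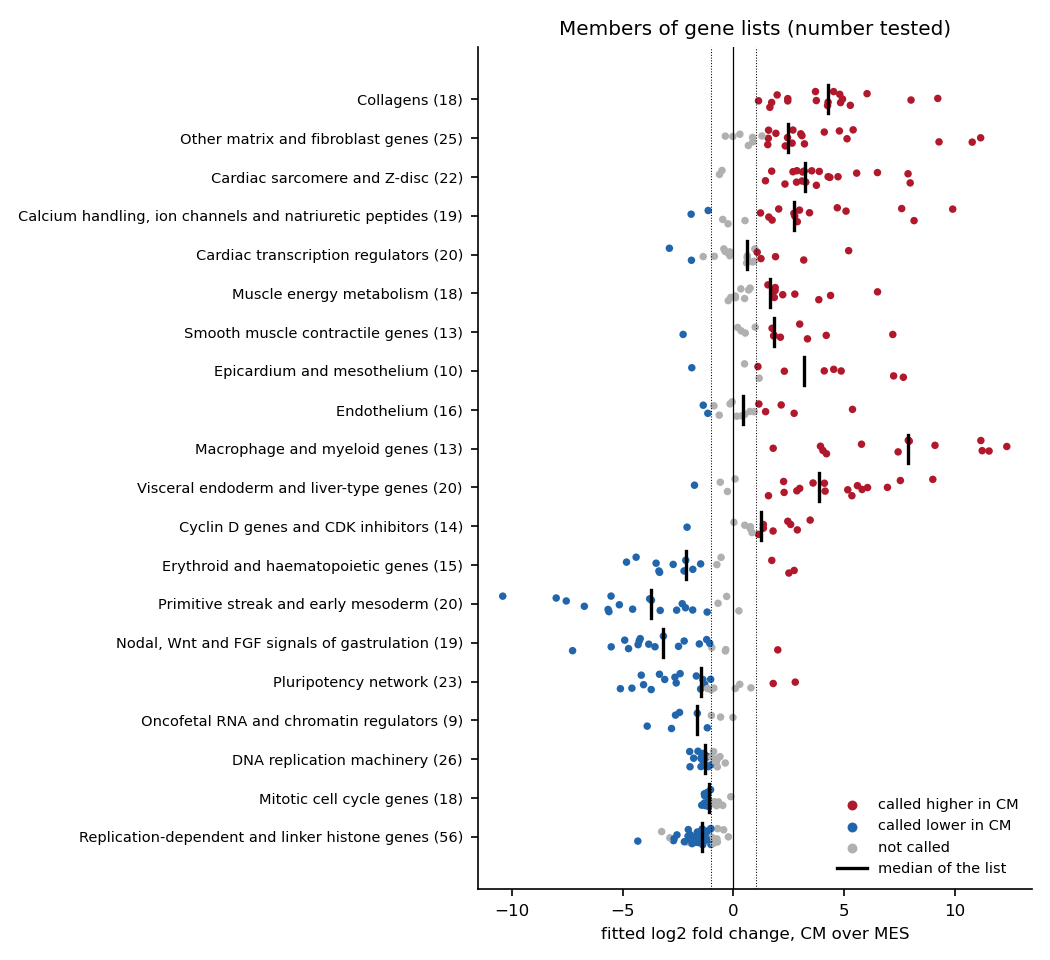
Fitted log2 fold change, CM over MES, of each tested member of 20 gene lists, with the number tested in brackets, where points are genes, bars are medians and dotted lines mark 2-fold. All collagen and macrophage genes lie to the right of 2-fold, the streak list has its median at -3.74, and replication and mitotic genes lie between -1.98 and -0.12.

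Sarcomere genes rose in CM, by less in TPM than matrix genes. Of 24 listed genes 22 were tested, 20 were higher and none lower (all tested mRNAs: 20.3% and 10.6%), with a median log2 fold change of 3.23. Their TPM summed to 1222 and 2246 in CM, against 780 and 693 in MES. The MES sum came mostly from *Tpm1*, an actin-binding tropomyosin that many cell types also express, which was at 406 and 455 TPM in CM, against 609 and 526 TPM in MES, and was not called (log2 fold change -0.63). The other tested member not called was *Tnnc1*, troponin C of slow and cardiac muscle, at 27.6 and 83.1 TPM in CM, against 73.3 and 57.9 TPM in MES (log2 fold change -0.52), which was called lower without CM replicate 2 (-1.40).

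The 4 largest fitted folds of the list were those of *Myh6*, *Myl2*, *Mybpc3* and *Ttn*, all of the thick filament or bound to it. *Myh6* rose 251-fold (log2 fold change 7.97, standard error 0.58, adjusted p = 5.52e-06). *Myh7*, the beta myosin heavy chain that predominates in the embryonic mouse ventricle, was at 53.4 and 75.6 TPM in CM, against 3.11 and 4.35 TPM in MES, and rose 14.6-fold (adjusted p = 4.21e-06). *Myl2*, the ventricular light chain, was at 10.9 and 26.4 TPM in CM and at 0 and 0.107 TPM in MES, where it had 1 count, a ratio of 291 (95% counting interval 51.8 to 11516). *Mybpc3*, which encodes cardiac myosin binding protein C, was at 29.5 and 63.7 TPM in CM, against 0.453 and 0.400 TPM in MES (log2 fold change 6.49). The giant elastic protein titin, encoded by *Ttn*, was at 19.3 and 41.6 TPM in CM, against 0.389 and 0.696 TPM in MES, and rose 47.1-fold (adjusted p = 2.90e-06). For *Myh6*, *Myl2*, *Mybpc3* and *Ttn* the CM libraries differed by 2-fold or more from each other, with CM replicate 2 higher, and both lay far above MES.

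Of the thin filament, *Actc1*, cardiac alpha actin, was at 195 and 514.5 TPM in CM, against 39.8 and 29.2 TPM in MES (log2 fold change 3.09, adjusted p = 9.80e-05). The slow skeletal troponin I that embryonic heart uses, *Tnni1*, was at 130 and 74.5 TPM in CM, against 3.43 and 5.27 TPM in MES, and rose 20.4-fold, while the adult cardiac form *Tnni3* was at 8.34 and 14.6 TPM in CM, against 3.05 and 4.04 TPM in MES (log2 fold change 1.44). The call of *Tnni3* was lost without MES replicate 1 (adjusted p = 0.0602). *Tnni1* was the more abundant form in both CM libraries. At the Z-disc, *Ldb3* was at 22.3 and 25.1 TPM in CM, against 0.824 and 1.26 TPM in MES (log2 fold change 4.27, adjusted p = 2.86e-06).

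The CArG box is the binding site of serum response factor, a regulator of muscle genes, and was searched for in the RefSeq promoter windows of GRCm38.p6, which run from 250 bases before to 50 bases after the start of a gene. Windows were found for 21 of the 22 tested sarcomere genes. A CArG box stood in 5 of them (23.8%), beside 1.63% of all 32851 windows and 1.30% of those of tested mRNAs. It also stood in 2 of 17 windows of the streak list (11.8%), whose genes were mostly lower in CM, and in 1 of 10 of the smooth muscle list (10%). The smooth muscle window is that of *Myl9*, also called higher, and is not printed. The 5 windows of the sarcomere list, all of genes called higher here, are printed as 60 bases in the direction of transcription with the box in capitals.
Actc1 (chr2:114052888-114052947, minus strand): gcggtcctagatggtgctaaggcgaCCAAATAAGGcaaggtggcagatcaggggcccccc
Ldb3 (chr14:34588682-34588741, minus strand): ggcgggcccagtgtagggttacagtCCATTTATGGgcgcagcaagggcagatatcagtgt
Myl3 (chr9:110763568-110763627, plus strand): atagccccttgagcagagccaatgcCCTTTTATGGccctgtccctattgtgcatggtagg
Myl7 (chr11:5898809-5898868, minus strand): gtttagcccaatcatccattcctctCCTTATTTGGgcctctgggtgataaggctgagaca
Myom1 (chr17:71019433-71019492, plus strand): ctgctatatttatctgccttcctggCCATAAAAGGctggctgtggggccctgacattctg
The first base of the box lay 47, 35, 85, 61 and 99 bases before the RefSeq start of *Actc1*, *Ldb3*, *Myl3*, *Myl7* and *Myom1* in that order. The RefSeq starts of *Actc1*, *Myl3* and *Myom1* lie 673, 21817 and 16924 bases from the outermost start of the GENCODE gene, so other starts of these genes were not searched. Of other motifs searched on both strands, CTAAAAATA of MEF2 factors was in none of the 21 windows (0.517% of all windows and 0.242% of those of tested mRNAs). AGATAA of GATA factors was in 2, or 9.52% (11.2% and 6.64%), and TCACACCT of T-box factors in 1, or 4.76% (1.28% and 0.885%). A match is a description of the letters and not evidence of binding.

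Of 19 tested genes of calcium handling and excitation, 14 were higher, or 73.7%, and 2 lower, or 10.5% (all tested mRNAs: 20.3% and 10.6%), with a median log2 fold change of 2.73. *Pln*, which encodes phospholamban, the inhibitor of the calcium pump, was at 8.36 and 11.7 TPM in CM with no count in MES, at least 74.9-fold higher. *Slc8a1*, the sodium-calcium exchanger, was at 29.4 and 61.1 TPM in CM, against 0.847 and 1.40 TPM in MES, and rose 33.8-fold (adjusted p = 4.60e-06). *Ryr2*, the calcium release channel, rose 2.33-fold, and *Hcn4*, the pacemaker channel, rose 6.80-fold (12.6 and 13.7 TPM in CM, against 1.13 and 2.18 TPM in MES). The natriuretic peptide genes were low: *Nppa* was at 7.02 and 5.71 TPM in CM and at 0 in MES, and *Nppb* at 8.81 and 22.2 TPM in CM, against 2.42 and 0.800 TPM in MES. The call of *Nppb* was lost without MES replicate 2 (adjusted p = 0.0530). The calcium pump gene itself, *Atp2a2*, which other cell types also use, was at 227 and 265 TPM in CM, against 299 and 287 TPM in MES, and was not called. The connexin *Gja1* (log2 fold change -1.14) and the potassium channel *Kcnj3* (-1.91) were the 2 called lower.

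Of 20 tested cardiac transcription regulators, 5 were higher and 2 lower (all tested mRNAs: 20.3% and 10.6%), and the median log2 fold change was 0.61. *Hand2*, a regulator of the right ventricle and outflow tract, was at 135 and 163 TPM in CM, against 32.0 and 36.1 TPM in MES, and rose 3.72-fold (adjusted p = 2.66e-06). Its relative *Hand1* was at 217 and 143 TPM in CM, against 613 and 544 TPM in MES (log2 fold change -1.90, adjusted p = 0.000214). *Mef2c*, a regulator of muscle genes, rose 2.36-fold, and *Tbx5*, a T-box factor of the left ventricle and atria, rose 2.10-fold (3.16 and 6.97 TPM in CM, against 2.06 and 1.96 TPM in MES). The call of *Tbx5* was lost without CM replicate 2 (0.50), MES replicate 1 (adjusted p = 0.0973) or MES replicate 2 (adjusted p = 0.133). *Tbx18*, of the sinus horn and epicardium, was at 2.06 and 2.19 TPM in CM with 2 counts in MES, a ratio of 40.9 (95% counting interval 11.01 to 343). *Gata4* at 68.9 and 113 TPM in CM, against 106.5 and 99.9 TPM in MES, and *Tbx20* at 118 and 120 TPM in CM, against 118 and 110 TPM in MES, were not called. Without CM replicate 2, 4 of the list were higher and 4 lower.

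**Figure D3:**
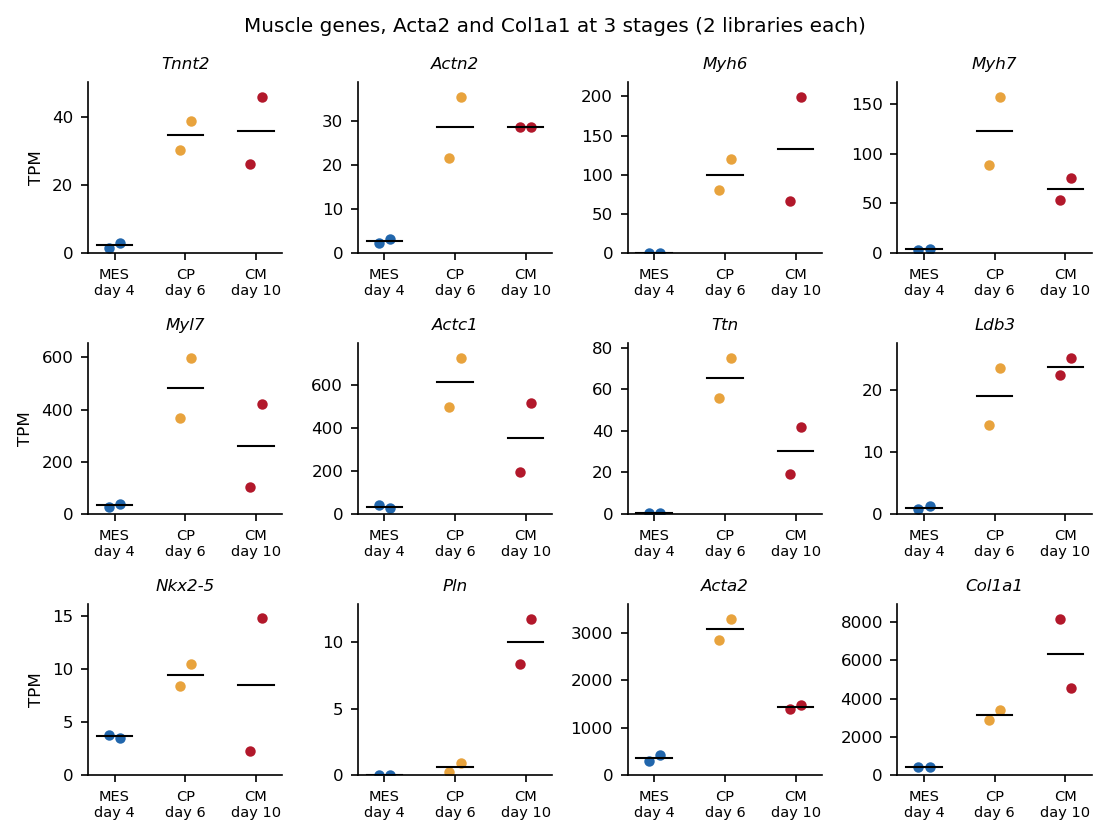
TPM in 2 libraries (points) and their mean (bar) in MES, CP and CM for 10 muscle genes, Acta2 and Col1a1, each panel with its own axis from 0. Tnnt2, Actn2, Myh6 and Ldb3 had higher means in CP than in MES, Actc1, Myl7, Myh7, Ttn and Acta2 had higher means in CP than in CM, Pln was under 1 TPM in CP, and Nkx2-5 overlaps between CM and MES.

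The CP libraries can place some of these changes before or after day 6. The contrast of 2 x CP minus MES minus CM, in log2 units, is positive where the step from MES to CP exceeds that from CP to CM. This includes genes whose CP level lay above both other stages. The steps differ in length, from day 4 to day 6 and from day 6 to day 10. At an adjusted p under 0.05 and an absolute value above 1, it was positive for 989 tested mRNAs (6.48%) and negative for 549 (3.60%). For most of the changed mRNAs it was not called, 2337 of the 3101 higher in CM and 1433 of the 1626 lower. Among those higher in CM it was positive for 590 and negative for 174. Among those lower in CM it was positive for 68 and negative for 125. Together these were 957 genes, which became 527 without CP replicate 1 and 408 without CP replicate 2.

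For the sarcomere list the contrast was positive for 19 of 22 genes and negative for none, and for 15 or more in each fit that left out a library. The TPM of the list summed to 2064 and 2880 in CP, against 1222 and 2246 in CM, so the libraries of these stages overlap. *Ttn* was at 55.7 and 74.8 TPM in CP, above its 19.3 and 41.6 TPM in CM. *Actc1* was at 498 and 722 TPM in CP, against 195 and 514.5 TPM in CM, with overlapping libraries. *Tnni3*, at 3.70 and 6.395 TPM in CP, and *Pln*, at 0.231 and 0.941 TPM, were not called by the contrast (-0.74, adjusted p = 0.518, and 1.88, adjusted p = 0.558, by edgeR). The collagen list gave a positive contrast for 10 of 18 genes, which fell to 5 without CP replicate 1 or CP replicate 2, and its TPM summed to 5963 and 7064 in CP. For the list of other matrix and fibroblast genes the contrast was positive for 14 of 25 and negative for 3. Beside the sarcomere, collagen and matrix lists, it was positive for 6.48% and negative for 3.60% of all tested mRNAs. *Postn* was at 895 and 1011 TPM in CP, above its 534 and 502 TPM in CM. By comparison, *Lox* was at 12.4 and 15.7 TPM in CP and *Col6a1* at 47.4 and 53.3 TPM, both far under their CM level.

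**Figure D4:**
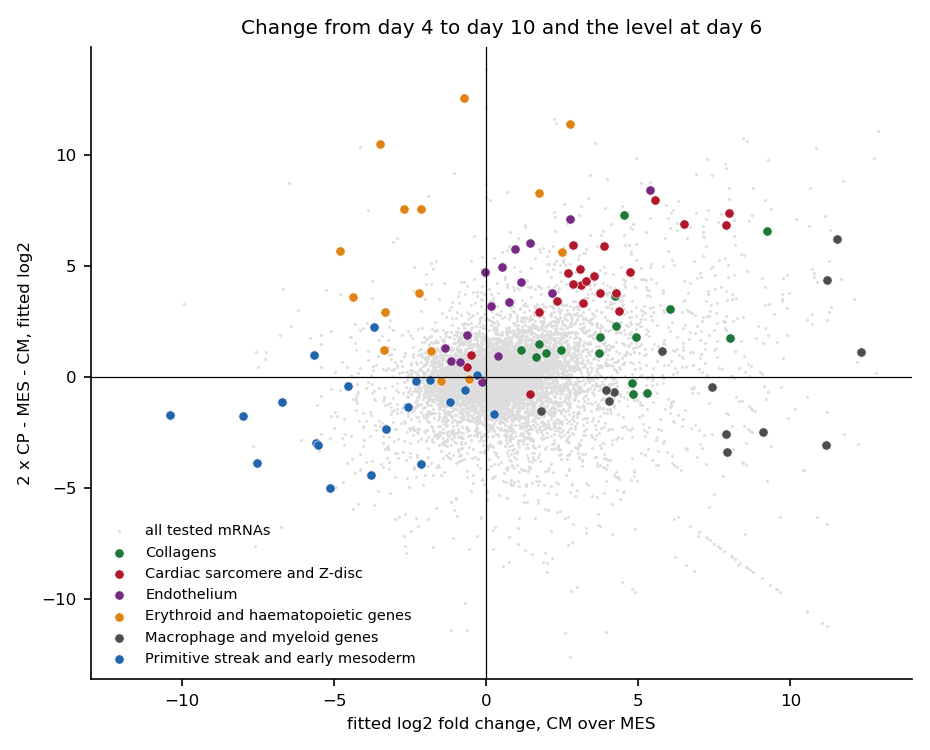
Fitted log2 fold change of CM over MES (horizontal) and the contrast 2 x CP minus MES minus CM (vertical) for all tested mRNAs (grey) and 6 lists (colours). Most sarcomere genes lie to the upper right, and erythroid genes at the top left and centre with contrasts up to 12.6. Macrophage genes lie to the right, with 1 of 13 contrasts called positive and 1 negative (all tested mRNAs: 6.48% and 3.60%). Points of genes with no count in a stage depend on the model's prior count.

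Of 18 tested genes of muscle energy metabolism, 10 were higher, or 55.6% (all tested mRNAs: 20.3%), and none lower. *Lpl*, the lipase that frees fatty acids from lipoproteins, was at 101 and 76.2 TPM in CM, against 5.10 and 5.49 TPM in MES, and rose 14.4-fold (adjusted p = 1.41e-06). *Fabp3*, the fatty acid binding protein of heart, was at 205 and 229 TPM in CM, against 58.8 and 44.0 TPM in MES. *Ppargc1a*, a coactivator of mitochondrial genes, was at 3.28 and 4.26 TPM in CM with 2 counts in MES. *Pdk4*, the kinase that holds back glucose oxidation, rose 4.67-fold. Of the oxidation enzymes, *Acadvl* rose 3.41-fold, and *Acadm*, *Cpt2* and *Hadha* had log2 fold changes of 0.08, -0.12 and 0.33.

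Of 21 genes of glucose uptake and glycolysis, 7 were lower, or 33.3% (all tested mRNAs: 10.6%), and 1 higher, and the 7 became 4 without CM replicate 2 and 10 without CM replicate 1. *Slc2a1*, a glucose transporter, was at 1156 and 810 TPM in CM, against 2391.5 and 2554 TPM in MES, and *Slc2a3* at 367 and 373 TPM in CM, against 985 and 1100 TPM in MES. *Eno1*, the glycolytic enolase, was at 534 and 436 TPM in CM, against 1210 and 1231 TPM in MES (log2 fold change -1.55). *Hk1*, a hexokinase, was the gene called higher, at 35.14 and 35.04 TPM in CM, against 11.7 and 14.3 TPM in MES.

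The primitive streak program was lower in CM. Of 20 tested genes of the streak and early mesoderm, 17 were lower and none higher (all tested mRNAs: 10.6% and 20.3%), with a median log2 fold change of -3.74. *Mixl1*, a homeobox factor of the streak (ENSMUSG00000026497, chromosome 1 from 180693043 to 180697034 of GRCm38), was at 0.265 and 1.18 TPM in CM, against 116 and 109.5 TPM in MES, 187-fold lower (log2 fold change -7.54, standard error 0.35, adjusted p = 7.87e-07). *T*, or Brachyury, was at 0.262 and 2.23 TPM in CM, against 116 and 102 TPM in MES, 106-fold lower (adjusted p = 2.17e-05). *Eomes*, the T-box factor upstream of *Mesp1*, was at 1.85 and 1.95 TPM in CM, against 69.5 and 90.6 TPM in MES, 49.2-fold lower. *Mesp1* had no count in CM and was at 34.02 and 18.5 TPM in MES, at least 123-fold lower in CM. *Msgn1* of presomitic mesoderm also had no count in CM. *Aplnr*, the apelin receptor of migrating mesoderm, fell by 3.70 on the log2 scale (7.99 and 13.4 TPM in CM, against 116.5 and 117 TPM in MES). *Foxa2*, *Pdgfra* and *Tbx6* were tested and not called, though *Foxa2* was called lower without CM replicate 2 (-1.30).

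The signals that drive gastrulation were lower as well, with 15 of 19 tested genes lower and 1 higher (all tested mRNAs: 10.6% and 20.3%). *Foxh1*, the partner of Smad proteins in Nodal signalling, was at 1.93 and 2.14 TPM in CM, against 274 and 261 TPM in MES, 153-fold lower (log2 fold change -7.26, standard error 0.20, adjusted p = 1.07e-07). *Nodal* was at 1.35 and 1.93 TPM in CM, against 28.5 and 26.8 TPM in MES, and its inhibitor *Lefty2* was 26.6-fold lower. *Fgf8* was at 2.997 and 4.33 TPM in CM, against 59.6 and 59.1 TPM in MES, and *Fgf3* was 112-fold lower. *Wnt3* was at 1.38 and 8.25 TPM in CM, against 59.8 and 52.0 TPM in MES. *Cyp26a1*, which breaks down retinoic acid, was at 20.5 and 19.9 TPM in CM, against 184 and 219 TPM in MES. The gene called higher was *Sfrp1*, a secreted Wnt antagonist, at 126 and 173 TPM in CM, against 18.2 and 45.5 TPM in MES.

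**Figure D5:**
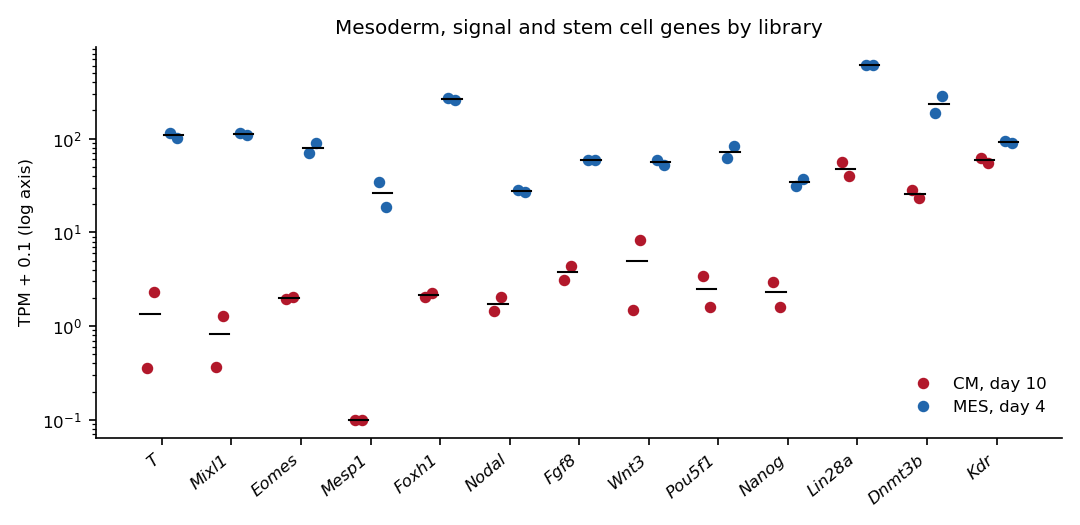
TPM plus 0.1 on a log axis in each library (points) with the mean (bar), CM (red) left of MES (blue), for 13 genes of the streak, of signals and of stem cells. The 2 groups are separate for all 13 genes, Mesp1 has no count in CM, and Kdr differs by less than 2-fold.

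Of 23 pluripotency genes, 15 were lower in CM, or 65.2% (all tested mRNAs: 10.6%), and 2 higher, with a median log2 fold change of -1.48. Several were near absent in MES as well, such as *Dppa3* with 2 counts there. *Pou5f1* was at 3.33 and 1.499 TPM in CM, against 62.4 and 83.1 TPM in MES, 34.3-fold lower (adjusted p = 2.85e-06). *Nanog* was at 2.89 and 1.503 TPM in CM, against 31.5 and 37.2 TPM in MES, and *Sall4* was 8.59-fold lower. *Sox2*, which encodes a partner of the protein made from *Pou5f1*, was at 10.5 and 17.1 TPM in CM, against 15.8 and 27.5 TPM in MES, and was not called (log2 fold change -0.89, adjusted p = 0.0101), with overlapping groups. *Klf4* (33.8 and 48.6 TPM in CM, against 9.07 and 11.1 TPM in MES) and *Tfcp2l1* (23.5 and 20.7 TPM in CM, against 2.89 and 2.60 TPM in MES) were the 2 called higher. Both are also expressed in differentiated epithelia.

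Of 9 tested oncofetal regulators, which are expressed in embryos and again in tumours, 6 were lower and none higher (all tested mRNAs: 10.6% and 20.3%). *Lin28a*, which blocks maturation of let-7 microRNAs, was at 55.9 and 39.6 TPM in CM, against 615 and 610.2 TPM in MES, 14.9-fold lower (adjusted p = 9.26e-07). *Trim71*, a target of let-7, was 5.4-fold lower and *Hmga1* 6.13-fold lower. *Igf2bp2* and *Igf2bp3* were not called (log2 fold changes -0.02 and -0.58). Of 8 genes that write or erase DNA methylation, *Dnmt3b* was at 28.4 and 22.9 TPM in CM, against 187 and 283 TPM in MES, 10.6-fold lower. *Dnmt3a* moved the other way, with 93.3 and 85.1 TPM in CM, against 25.1 and 30.05 TPM in MES, 2.78-fold higher. The oxidizing enzymes differed in the same manner, *Tet1* 3.53-fold lower and *Tet2* 3.25-fold higher. *Dnmt3l* and *Uhrf1* were lower too, and *Dnmt1* (log2 fold change -0.62) and *Tet3* (0.53) stayed within 2-fold.

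Genes of cell division were lower in CM. Of 26 genes of the replication machinery 17 were lower, or 65.4%, and none higher (all tested mRNAs: 10.6% and 20.3%). Values of the 26 ran from -1.98 to -0.37 on the log2 scale. *Cdc6*, which loads the replicative helicase, was at 20.7 and 24.9 TPM in CM, against 78.5 and 74.1 TPM in MES (log2 fold change -1.98, standard error 0.10), and *Mcm5*, a helicase subunit, at 99.8 and 98.3 TPM in CM, against 258 and 256 TPM in MES. Of 18 mitotic genes 11 were lower, or 61.1%, and none higher, and 7 were lower when counts were scaled by library totals only. *Cdc20*, the activator of the anaphase-promoting complex, was at 139 and 142 TPM in CM, against 331 and 317 TPM in MES. The 56 tested histone genes of the replication-dependent and linker classes were a list added after values were seen. Of them 45 were lower, or 80.4%, and none higher. *H4c12* was at 2413 and 1864 TPM in CM, against 4758 and 4212 TPM in MES. Histone genes have near-identical copies between which reads can be split, so single members are uncertain, and their summed TPM was 26970 and 23131 in CM, against 55447 and 48894 in MES.

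Of 14 cyclin D genes and inhibitors of cyclin-dependent kinases or of the cycle, 8 were higher, or 57.1%, and 1 lower (all tested mRNAs: 20.3% and 10.6%). *Cdkn2c* was at 18.6 and 13.3 TPM in CM, against 1.01 and 1.47 TPM in MES, 11.01-fold higher (adjusted p = 2.39e-05). *Cdkn1a*, or p21, was at 175 and 363 TPM in CM, against 68.2 and 62.1 TPM in MES (log2 fold change 1.79), and *Cdkn1c* at 759 and 429.5 TPM in CM, against 205 and 200.4 TPM in MES, a call lost without CM replicate 1 (log2 fold change 0.76). *Rbl2*, a pocket protein of resting cells, rose 7.36-fold. The gene called lower was *Ccnd1*, at 49.3 and 62.2 TPM in CM, against 234 and 169 TPM in MES. *Npm1*, a nucleolar protein of ribosome assembly, was 2.70-fold lower. Of 82 ribosomal protein genes, 56 were lower on adjusted p alone and none higher, beside 4674 of all 15271 tested mRNAs lower. With the fold threshold as well, 6 were called lower, or 7.32% (all tested mRNAs: 10.6%). That count was 2 without CM replicate 2 or MES replicate 1, 12 without CM replicate 1 and 1 under scaling by library totals only, while the median log2 fold change of the 82 genes was -0.53.

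CM libraries also held markers of other cell types. All 13 macrophage genes on the list were higher (of all tested mRNAs, 20.3%). The median log2 fold change of the list was 7.89, or 7.43 with the 5 genes without a MES count at their bound. The TPM of all 13 summed to 780 and 783 in CM, against 20.7 and 21.8 in MES and 62.7 and 78.8 in CP. *C1qb*, a chain of the first complement component, was at 139 and 135 TPM in CM with no count in MES, at least 407-fold higher. *Csf1r*, the receptor for the growth factor of macrophages, was at 76.6 and 70.2 TPM in CM, against 0.181 and 0.541 TPM in MES (7.43 on the log2 scale, standard error 0.27, adjusted p = 2.96e-07). *Adgre1*, which encodes the F4/80 antigen of mouse macrophages, was at 42.4 and 41.2 TPM in CM and at 0 in MES. The 2 CM libraries were close for these 3 genes, but *Mrc1*, a mannose receptor, was at 77.7 and 46.8 TPM and *Lyz2*, a lysozyme, at 81.2 and 154 TPM in CM. The part of such cells in the other results was not tested.

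Endodermal and liver-type genes were higher for 16 of 20 tested and lower for 1, or 80% and 5% (all tested mRNAs: 20.3% and 10.6%). *Afp*, alpha-fetoprotein of yolk sac and fetal liver, was at 255 and 463 TPM in CM, against 2.99 and 7.86 TPM in MES, and rose 55.8-fold (adjusted p = 6.29e-06). *Rbp4*, the carrier of retinol, was at 631 and 595 TPM in CM, against 8.27 and 13.5 TPM in MES. *Trf*, which encodes transferrin, was at 52.2 and 48.0 TPM in CM, against 1.39 and 1.00 TPM in MES. The summed TPM of the list was 1584 and 1774 in CM, against 94.6 and 143 in MES. The endoderm factors *Sox17*, *Foxa2* and *Foxa1* were not called.

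Smooth muscle genes were higher for 8 of 13 and lower for 1, or 61.5% and 7.69% (all tested mRNAs: 20.3% and 10.6%). *Acta2*, alpha actin of smooth muscle and of the early heart, was at 1398 and 1473.5 TPM in CM, against 305 and 431 TPM in MES, and rose 3.34-fold (adjusted p = 1.03e-05), after 2857 and 3295 TPM in CP. *Actg2*, the gamma actin of gut and other visceral smooth muscle, was at 303 and 223 TPM in CM, against 0.807 and 2.27 TPM in MES, and rose 146-fold. *Myh11*, the heavy chain that defines mature smooth muscle, was low at 1.86 and 1.66 TPM in CM, against 0.496 and 0.357 TPM in MES. *Cnn1*, calponin, was the gene called lower, and *Tagln* was not called.

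Of 10 epicardial and mesothelial genes 7 were higher and 1 lower, or 70% and 10% (all tested mRNAs: 20.3% and 10.6%). *Upk3b* was at 168 and 37.8 TPM in CM, against 0.534 and 0.354 TPM in MES, and *Wt1*, the Wilms tumour factor, at 34.2 and 19.0 TPM in CM, against 1.35 and 1.34 TPM in MES. CM replicate 1 was the higher in both. The gene called lower was *Lrrn4*, a leucine-rich repeat gene, at 36.4 and 17.1 TPM in CM, against 85.9 and 86.2 TPM in MES.

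Of 16 tested endothelial genes, 5 were higher, or 31.2%, and 2 lower, or 12.5% (all tested mRNAs: 20.3% and 10.6%), with a median log2 fold change of 0.44. Their TPM summed to 380 and 323 in CM, against 299 and 323 in MES. In CP the sum was 769 and 842. The contrast of CP with both other stages was positive for 12 genes and negative for none (all tested mRNAs: 6.48% and 3.60%). *Cdh5*, the endothelial cadherin, was at 52.6 and 34.4 TPM in CM, against 7.68 and 9.27 TPM in MES, after 70.1 and 76.7 TPM in CP. *Kdr* and *Pecam1* were not called.

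Of 15 tested erythroid and haematopoietic genes 10 were lower in CM than in MES, or 66.7%, and 3 higher, or 20% (all tested mRNAs: 10.6% and 20.3%). The contrast with CP was positive for 12 and negative for none (all tested mRNAs: 6.48% and 3.60%). The embryonic globin *Hbb-bh1* was at 26.4 and 20.2 TPM in CM, against 157 and 297 TPM in MES, and at 2768 and 2914 TPM in CP. *Tal1*, a factor of blood and endothelial precursors, was at 4.90 and 6.92 TPM in CM, against 51.0 and 52.0 TPM in MES, 10.3-fold lower (adjusted p = 6.36e-07). *Gata1*, the erythroid factor, was 10.1-fold lower. *Hbb-y* was higher in CM than in MES (31.0 and 39.4 TPM in CM, against 1.99 and 6.91 TPM in MES). The call of *Hbb-bs* as higher was lost without MES replicate 1 (adjusted p = 0.0858).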

How the data were processed

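RNA of J1 ESC cultures was depleted of ribosomal RNA and sequenced from both ends. Per the submitters' processing notes, the authors trimmed reads with Trim Galore 0.6.6, aligned them to GRCm38 with HISAT2 2.2.1 and counted them per gene by strand with featureCounts 2.0.1; DESeq2 1.34.0 is also named there. The authors deposited raw counts and TPM per gene, both as whole tables of 8 libraries, with an exon length (another unit, in bases) beside them, and in TPM recomputed from these counts and lengths 0 of 443896 values lay over 0.001 TPM from the deposited ones. Differences in library total and gene length are therefore removed from TPM, but not differences in composition, for which counts were scaled by TMM.

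Counts were tested with edgeR 4.0.16 (R 4.3.3) by the quasi-likelihood F-test after its filter on low counts by stage, with all 8 libraries and a term for each stage, giving 4 residual degrees of freedom and a common dispersion of 0.0163. The p-values rest on a spread per gene between replicates, pooled over the stages of all 8 libraries, and not on that of CM and MES alone. All libraries come from a single ESC line, so no spread between lines is measured. The Benjamini-Hochberg adjustment ran over all 20071 genes tested. Standard errors were taken from the log2 fold change and F. Where a stage had no count of a gene, 3 counts over its 2 libraries served as the floor, and genes with 1 to 3 counts got a ratio with its exact 95% interval; both cover counting error only. In counts simulated for CM over MES across 20071 genes, 24 of 50 genes changed 2-fold and all 50 changed 4-, 8- or 16-fold were called, with 8 false calls. The changed genes averaged 2 or more in log2 CPM, and a 2-fold change lies at the fold threshold itself. Each gene had the same spread in every stage of the simulation, while real CM replicates lay further apart. It can therefore overstate the share called and understate false calls for CM.

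The genes, lists and tests were chosen with earlier results of these data known. The rule named the 10 largest rises and falls by fold among those averaging 2 or more in log2 CPM with separate replicates, the 10 largest by TPM each way, up to 4 called genes per list and direction with the smallest adjusted p, and all of a list of 8 or fewer. The defining markers, and other list members given with their values, were chosen after their values were seen. Coordinates are from GENCODE M21. Promoter windows are from RefSeq (GRCm38.p6) and matched 75.4% of the mRNAs called higher, so a check of promoter composition over called genes was void. DESeq2 1.42.0 gave an alternative test, and figures were drawn with matplotlib 3.10.9 in Python 3.11.15. The other settings tried changed the tool, scaling, filter, libraries, thresholds and a replicate block.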

Additional observations from a re-analysis of the deposited data

How the results depend on the processing

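The counts of mRNAs called higher and lower in CM stayed within 1.5 times of 3101 and 1626 with DESeq2, its size factors, library totals, no filter, the 4 libraries of CM and MES alone and a replicate block. They changed with the thresholds. On adjusted p alone 4784 were higher and 4674 lower, and above 4-fold 1775 were higher and 375 lower. Without 1 library they ranged from 2733 to 3125 higher and from 1384 to 1790 lower. The genes with unequal steps ranged from 408 to 1323 without 1 library, with 527 without CP replicate 1 and 408 without CP replicate 2. Scaling by library totals shifted the median log2 fold change by 0.14, and 73.0% of its calls were higher, beside 65.6%. The replicate block gave 3068 higher, 1625 lower and 1014 with unequal steps, and changed no call of the 240 genes checked singly. Of the list counts it gave 7 oncofetal genes lower in place of 6, 47 histone genes lower in place of 45 and 5 antigen presentation genes higher in place of 6, and moved no other. Differences between replicates of CM and of MES correlated at 0.03 over 11760 mRNAs, with only 2 pairs, so the numbers were not taken as pairs.

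Some genes that were not called changed sign. The log2 fold change of *Igf2bp2* was 0.0106 with DESeq2 and with its size factors, 0.113 under library totals, 0.0064 with the 4 libraries alone and 0.0073 with the replicate block in these. That of *Vcan* was 0.0063 with DESeq2 and with its size factors, 0.125 under library totals and 0.0049 with the 4 libraries alone, and that of *Cpt2* was 0.0035 under library totals. Without 1 library the values ranged from -0.0536 to 0.014 for *Igf2bp2*, -0.3871 to 0.249 for *Vcan* and -0.381 to 0.083 for *Cpt2*. They ranged from -0.214 to 0.321 for *Acadm*, -0.493 to 0.467 for *Foxa1*, -0.068 to 0.425 for *Tagln* and -0.022 to 0.595 for *Tbx6*. The ranges were -1.40 to 0.014 for *Tnnc1* and -0.85 to 1.69 for *Nkx2-5*. The cause was not tested. With 2 libraries a stage, changes near 2-fold are the least certain.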

Other observations

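Other gene lists also held genes called between CM and MES. Of 14 imprinted genes, which are expressed from a single parental copy, 7 were higher and 1 lower, or 50% and 7.14% (all tested mRNAs: 20.3% and 10.6%). *Plagl1*, a zinc finger factor, was at 1007 and 907 TPM in CM, against 4.15 and 7.57 TPM in MES, and rose 140-fold. *Dlk1*, a Notch ligand homologue, was at 1217 and 720 TPM in CM, against 25.1 and 36.9 TPM in MES. *Phlda2*, which restrains placental growth, was the gene called lower (111.5 and 67.3 TPM in CM, against 568 and 477 TPM in MES).

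Of 33 Hox genes 12 were higher and 7 lower, or 36.4% and 21.2% (all tested mRNAs: 20.3% and 10.6%). *Hoxc10* of the posterior body was at 11.3 and 10.1 TPM in CM, against 1.32 and 1.64 TPM in MES, while *Hoxb1*, of the anterior end of its cluster, was at 0.697 and 0.0967 TPM in CM, against 5.69 and 7.99 TPM in MES. *Hoxd1* had no count in CM and was at 13.2 and 13.1 TPM in MES, at least 89.6-fold lower in CM. Of 24 genes of TGF-beta and BMP signalling 7 were higher and 10 lower, or 29.2% and 41.7%, beside the same 20.3% and 10.6%. *Bmp2* was at 11.5 and 21.1 TPM in CM, against 96.8 and 91.0 TPM in MES, and *Tgfb3* at 66.7 and 38.5 TPM in CM, against 4.21 and 2.34 TPM in MES.

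Of 13 immediate early and stress genes 8 were higher, or 61.5%, and none lower (all tested mRNAs: 20.3% and 10.6%). Among the 8 was *Egr1*, at 41.7 and 53.9 TPM in CM, against 7.71 and 9.34 TPM in MES. Of 13 genes of antigen presentation 6 were higher and 2 lower, or 46.2% and 15.4%. *B2m*, called higher, was at 379 and 357 TPM in CM, against 88.0 and 88.2 TPM in MES. *Rhox6*, of a homeobox cluster on the X chromosome, was at 206 and 76.5 TPM in CM with no count in MES.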
